A study of Macaca fascicularis with 23 samples.

Results

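The Hippo-YAP genes described here are 7 genes of the Hippo pathway, chosen by name among the 8415 genes of the expression table that were analysed. They are CTGF (CCN2; gene ID 101926338), CYR61 (CCN1; 102133462), AMOTL2 (102132597), F3 (102131431), WWTR1 (102142937), TEAD3 (102122772) and LATS1 (102126115). All 7 were measured in 23 libraries of cynomolgus monkey (Cm) cells by SC3-seq, a method that sequences mRNA from the 3′ end, here from 1 ng of total RNA. Each of 7 pluripotent stem cell (PSC) lines gave 1 library in each of 3 media, and somatic cells of liver and of stomach gave 1 library each. There were 3 ESC lines (CMK6 and TRSK, male, and CMK9, female). The 4 iPSC lines were a pair derived from liver (iPS-L3, iPS-L6) and a pair derived from stomach (iPS-S6, iPS-S12) of a single female foetus. Values listed by line below keep this order.

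Primed PSCs were grown in bFGF/KSR medium (knock-out serum replacement with basic fibroblast growth factor). Naïve-like PSCs were grown in K5cLD medium, which has KSR, N2 and B27 supplements, the compounds Gö6983 (a protein kinase C inhibitor), forskolin (an adenylyl cyclase activator), kenpaullone and CHIR99021 (GSK-3β inhibitors) and SB590885 (a RAF inhibitor), LIF, and doxycycline (Dox). Dox drove hKLF2 and hNANOG transgenes that these cells carried on PiggyBac vectors after transfection and drug selection, so medium, transgenes and selection changed together between primed and naïve-like cells. Differentiated cells were the converted cells in K5c, the same medium without LIF and Dox, so the compounds were still present and the transgenes were carried but not induced. In the study's own test without Dox, in medium with LIF, some exogenous hNANOG expression remained in TRSK and iPS-S6. Lines kept on mouse feeder cells were passaged on laminin without feeders before RNA was taken. The somatic cells grew in medium with foetal serum, insulin, transferrin, selenium, hepatocyte growth factor and epidermal growth factor. The iPSC lines had been made with episomal reprogramming factors and a short hairpin RNA against p53, and since all 4 came from 1 foetus, they stand for 1 donor.

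In the Hippo pathway, the kinases LATS1 and LATS2 phosphorylate the co-activators YAP and TAZ and keep them out of the nucleus. TAZ is the product of WWTR1. When the kinases are less active, for example in spread cells under mechanical tension, YAP and TAZ enter the nucleus, bind TEAD factors such as TEAD3, and raise the transcription of targets such as CTGF and CYR61, both secreted matricellular proteins, AMOTL2, which in turn binds and restrains YAP, and F3, tissue factor, the cell-surface trigger of blood clotting. The pathway acts through protein phosphorylation and location, which RNA levels do not show.

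The values are RPM, mapped reads of a gene per 1000000 mapped reads of its library, and differences are on the log2(RPM + 1) scale, which understates the change of low genes. The libraries held 861000 to 7986000 mapped reads (median 3004000), as worked out from the RPM value of 1 read, 4 of them under 1000000, and 3 reads corresponded to 0.38 to 3.49 RPM. Of the 8415 genes, 2776 counted as expressed, with log2(RPM + 1) above 4 in at least 1 PSC library. All 7 genes were expressed by this rule, but F3 passed it only through primed libraries, so the filter favoured a difference of F3 from the primed state. Genes were compared with limma across the 2776 genes, and a gene is said to have risen or fallen where the Benjamini-Hochberg adjusted p over these genes was under 0.05. YAP1, TEAD1, TEAD2, TEAD4, LATS2, AMOT and AMOTL1 were not analysed here.

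In naïve-like PSCs CTGF and F3 were lower than in primed PSCs, 3.45-fold and 5.00-fold on this scale. CYR61, AMOTL2 and WWTR1 were lower in the same 6 of 7 lines without passing the test, and TEAD3 and LATS1 had log2 differences of 0.45 and 0.02. Removal of LIF and Dox moved none of the 7 genes past the threshold. The differentiated cells were below the primed ones in F3 and WWTR1, 6.14-fold and 2.30-fold. One library, primed CMK9, went against the other lines in 5 of the 7 genes. Without it all 5 passed the test on conversion, where 8.7% of the genes then tested fell. That alternative was chosen after the values had been seen.

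**Figure D1:**
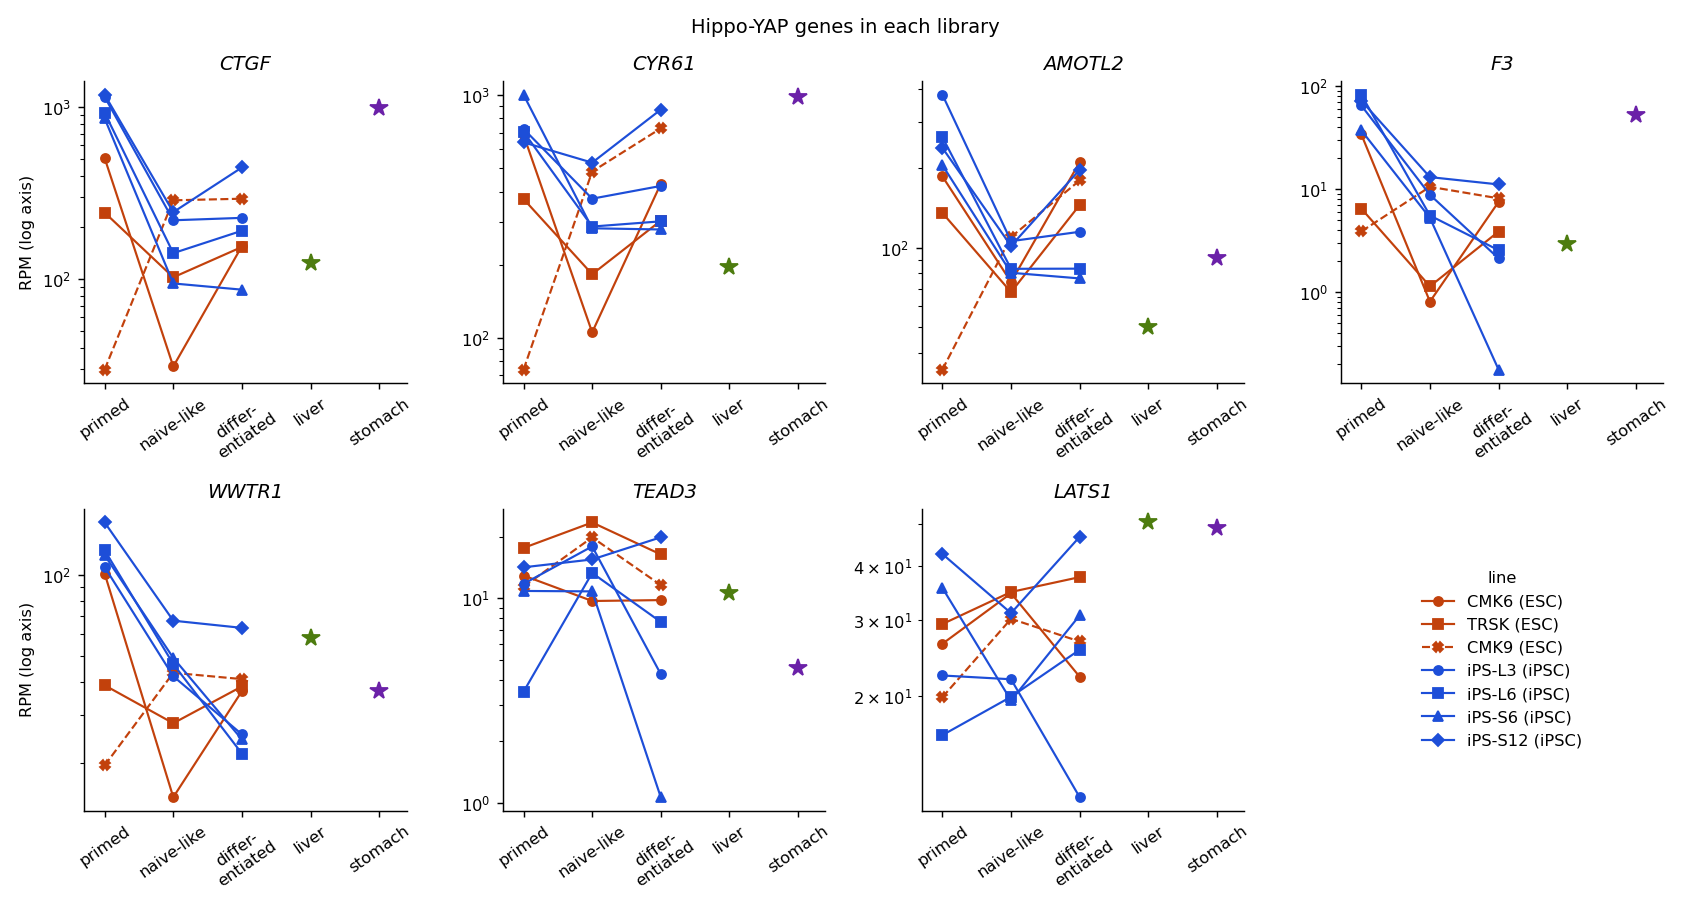
RPM (log axis) of the 7 Hippo-YAP genes in each library, with the 3 libraries of a line joined (orange, ESC lines; blue, iPSC lines; dashed, CMK9) and stars for the liver and stomach libraries. CTGF, CYR61, AMOTL2, F3 and WWTR1 go down from primed to naïve-like cells in 6 lines and up in CMK9, and the stomach library has CTGF and CYR61 at 989.8 and 976 RPM while the liver library has 124 and 196 RPM.

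The secreted targets come first. CTGF in primed PSCs had 505 RPM in CMK6, 244 RPM in TRSK, 29.9 RPM in CMK9, 1146 RPM in iPS-L3, 926 RPM in iPS-L6, 859 RPM in iPS-S6 and 1179 RPM in iPS-S12. In the same order, naïve-like PSCs had 31.2, 103, 288, 220.2, 142, 94.6 and 245 RPM. The differentiated cells had 156, 154, 294, 227, 191, 87.0 and 446 RPM. The primed libraries of CMK6 and the 4 iPSC lines thus lay above every naïve-like and differentiated library, primed CMK9 was the lowest of all 21 PSC libraries, and because of it the ranges of the media overlapped. On the log2 scale CTGF fell on conversion by 1.79 (standard error 0.62, n = 7 lines, adjusted p = 0.0457 in limma's test), lower in 6 of 7 lines. The call was close to the threshold and was kept under 6 of 19 alternatives, over which the adjusted p ran from 0.000486 to 0.154. The removal of any line other than CMK9 raised it above 0.05. After LIF and Dox removal CTGF differed by 0.59 (standard error 0.62, adjusted p = 0.604), and against primed PSCs the differentiated cells stood at -1.20 (adjusted p = 0.205).

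CYR61 had 684, 373, 74.0, 725, 704, 1001 and 638 RPM in the 7 primed libraries, from CMK6 to iPS-S12. Naïve-like PSCs had 105, 183, 484, 374, 287, 282 and 526 RPM, and differentiated cells 431, 303, 728, 422, 302, 279 and 870.2 RPM. The primed values without CMK9 started at 373 RPM and so overlapped the naïve-like ones only in the upper part of the range. The difference on conversion was -0.77 (standard error 0.44, adjusted p = 0.231), that on LIF and Dox removal 0.61 (adjusted p = 0.406) and that between differentiated and primed cells -0.15 (adjusted p = 0.855), none of them past the threshold. Among the 6 lines with less CYR61 after conversion, CMK6 had the widest swing, from 684 RPM to 105 RPM and then 431 RPM.

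AMOTL2, an angiomotin family member at cell junctions, had 186, 135, 34.6, 379, 261, 205 and 238 RPM in the primed libraries in the same order of lines. The naïve-like libraries were close together, at 74.1, 67.8, 109.7, 106, 83.1, 80.3 and 101 RPM. In the differentiated libraries the values were 211, 145, 179, 115, 83.2, 76.4 and 197 RPM. With CMK9 set aside, all primed values lay above all naïve-like values, and with it the groups overlapped. The difference of naïve-like from primed PSCs was -0.96 (standard error 0.35, adjusted p = 0.0559 in limma's test). It passed under 5 of 19 alternatives, one of them the fit with the cell line as a block (adjusted p = 0.0482). AMOTL2 after LIF and Dox removal was higher in 6 of 7 lines, by 1.49 on the log2 scale in CMK6 and by 0.00178 in iPS-L6, and the mean difference of 0.61 (standard error 0.35) had an adjusted p of 0.272.

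F3 had 34.0 RPM in primed CMK6, 6.47 RPM in TRSK, 3.88 RPM in CMK9, 64.9 RPM in iPS-L3, 82.5 RPM in iPS-L6, 37.2 RPM in iPS-S6 and 72.3 RPM in iPS-S12. The naïve-like libraries had 0.808, 1.14, 10.5, 8.81, 5.54, 5.26 and 13.1 RPM in this order, and the differentiated ones 7.51, 3.87, 8.14, 2.13, 2.55, 0.177 and 11.1 RPM. Primed TRSK and CMK9 lay among the cells of the other media, and the other 5 primed libraries lay above all of these. Some of these levels rest on very few reads. Naïve-like CMK6 had 2 reads, naïve-like TRSK 3, differentiated iPS-L3 2, and differentiated iPS-S6 less than the value of 1 read. On conversion F3 fell by 2.32 (standard error 0.64, adjusted p = 0.0144), and differentiated cells were below primed PSCs by a log2 difference of -2.62 (standard error 0.64, adjusted p = 0.0076), each in 6 of 7 lines. The first call was lost without CMK6 (adjusted p = 0.0603) or without iPS-L6 (0.0577), and the second without the 4 libraries under 1000000 reads (log2 difference -1.84, adjusted p = 0.107). Between naïve-like and differentiated cells F3 differed by -0.30 (95% interval -1.62 to 1.03, adjusted p = 0.824).

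**Figure D2:**
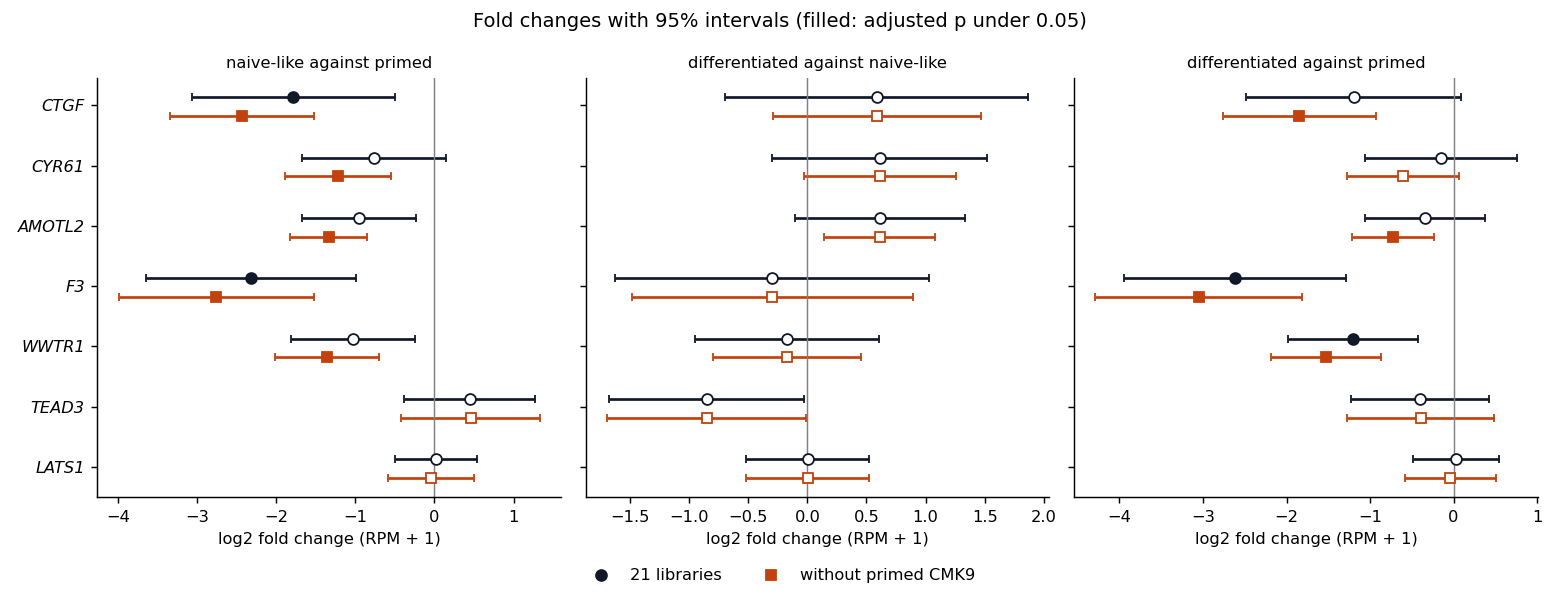
Log2 fold changes of the 7 genes (horizontal axis) with 95% intervals in the 3 comparisons of media, from all 21 PSC libraries (black circles) and without primed CMK9 (orange squares). Symbols are filled where the adjusted p was under 0.05, which on conversion is the case for CTGF and F3 with all libraries and for 5 genes without primed CMK9, and for no gene between differentiated and naïve-like cells.

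Of the regulators, WWTR1, which encodes the co-activator TAZ, had 101, 38.8, 19.5, 107, 123, 118 and 156 RPM in the primed libraries. Its naïve-like values were 14.9, 28.0, 43.2, 41.9, 46.5, 49.1 and 67.5 RPM, and its differentiated values 36.9, 38.4, 40.9, 25.5, 21.6, 24.4 and 63.4 RPM. The primed libraries of TRSK and CMK9 were again among the other media and the other 5 above them. WWTR1 was lower in naïve-like than in primed PSCs by a log2 difference of -1.03 (standard error 0.38, adjusted p = 0.058), which passed with the cell line as a block (adjusted p = 0.0348). Against primed PSCs, WWTR1 fell in differentiated cells, with a log2 difference of -1.20 (standard error 0.38, adjusted p = 0.036), lower in 6 of 7 lines. This call was kept under 10 of 19 alternatives. It was lost without line CMK6, iPS-L3, iPS-L6 or iPS-S6 (adjusted p 0.0637 to 0.15), without primed iPS-S12 (0.0704) and without the 4 libraries under 1000000 reads (0.219), as well as with no filter (0.0909), no mean-variance trend (0.052) or only the 2 media in the fit (0.054). WWTR1 after LIF and Dox removal differed by -0.17 (95% interval -0.95 to 0.61).

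TEAD3, one of the DNA-binding partners of YAP and TAZ, was low in every medium. Its median was 11.8 RPM in primed PSCs, 15.5 RPM in naïve-like PSCs and 9.79 RPM in differentiated cells. By line, primed TEAD3 was 12.9, 17.6, 11.4, 11.8, 3.49, 10.9 and 14.2 RPM. The naïve-like series was 9.69, 23.5, 19.9, 17.9, 13.3, 10.8 and 15.5 RPM and the differentiated one 9.79, 16.4, 11.6, 4.25, 7.66, 1.06 and 19.9 RPM. The lowest values came from libraries under 1000000 reads: 3 reads in primed iPS-L6, 4 in differentiated iPS-L3 and 1 in differentiated iPS-S6. TEAD3 differed by 0.45 on conversion (95% interval -0.38 to 1.27, adjusted p = 0.479) and by -0.85 on LIF and Dox removal (standard error 0.40, adjusted p = 0.171), and it did not pass under any alternative.

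LATS1, the kinase that restrains YAP and TAZ, had 26.5, 29.4, 19.9, 22.3, 16.3, 35.6 and 42.7 RPM in the primed libraries of the 7 lines. It had 34.6, 34.9, 30.2, 21.9, 19.9, 19.6 and 31.1 RPM in the naïve-like and 22.2, 37.7, 26.8, 11.7, 25.6, 30.8 and 46.8 RPM in the differentiated libraries. The 3 ranges overlapped nearly whole. Its log2 differences were 0.02 on conversion (95% interval -0.49 to 0.54), 0.00256 after LIF and Dox removal (-0.52 to 0.52) and 0.03 between differentiated and primed cells (-0.49 to 0.55). A change of more than 0.55 on the log2 scale in either direction was thus outside these intervals, while smaller changes cannot be told from none.

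By count, 2 of the 7 genes fell on conversion, against 19.2% of the 2776 expressed genes that passed in either direction and 8.18% that fell. The median log2 difference was -0.96 over the 7 genes and 0.06 over all expressed genes. The filter favoured F3 in this count. Between differentiated and naïve-like cells 0 of 7 passed, by limma's test with all libraries and under every alternative, against 14.1% of the expressed genes. One of the 7, TEAD3, had an unadjusted p under 0.05 there (0.044), as did 752 of the 2776 genes. Between differentiated and primed cells 2 of 7 fell, where 13.4% passed in either direction and 7.13% fell, with medians of -0.41 over the 7 and 0.05 over all. F3 is 1 of these 2, so the filter favoured this count as well. The 3 comparisons share libraries. By direction within lines, 5 of the 7 genes, F3 among them, were lower in naïve-like PSCs in at least 6 lines, against 18.4% of the expressed genes. After LIF and Dox removal CTGF, CYR61 and AMOTL2 were higher in 6 of 7 lines, against 19.8% of the expressed genes higher in at least 6.

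The 7 genes did not vary alike. Over the 21 PSC libraries the log2 levels of CTGF, CYR61, AMOTL2, F3 and WWTR1 had Pearson's r between 0.72 and 0.94 with each other, highest for F3 with WWTR1 and lowest for CYR61 with F3. Once the mean of each medium was taken off, r lay between 0.82 and 0.94. TEAD3 and LATS1 had r of 0.42 with each other and between 0.02 and 0.19 with the other 5. These are descriptions over libraries that share lines and media. The expressed genes most like CTGF were CYR61 (r = 0.91), WWTR1 (0.89) and AMOTL2 (0.88). Those most like CYR61 were CTGF, IGFBP7 (0.87) and NUAK2 (0.87), and those most like AMOTL2 were EPHA2 (0.91), CTGF and CYR61 (0.86). F3 was most like WWTR1 (0.94), TPBG (0.91) and ETS2 (0.90), and WWTR1 most like F3, CTGF and ZNF655 (0.87). The nearest genes of TEAD3 were TMEM167B (0.86), EPS15 (0.73) and HDAC1 (0.72), and of LATS1 RNF146 (0.74), EDEM1 (0.74) and ELOVL1 (0.72).

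Line by line, CMK6 showed the largest drop on conversion in CTGF, CYR61, F3 and WWTR1. Its CTGF differed by -3.98, CYR61 by -2.69, F3 by -4.28 and WWTR1 by -2.68 on the log2 scale. On LIF and Dox removal the same line showed the largest positive difference in each, with 2.29 for CTGF, 2.02 for CYR61, 2.24 for F3 and 1.25 for WWTR1. Both sets of differences use the naïve-like CMK6 library, the lowest of its medium in each of these genes, so they are not separate observations. Its F3 value rests on 2 reads. TRSK moved the same way by less, with CTGF at -1.24 and then 0.58. In the 4 iPSC lines CTGF differed by -2.26 to -3.17 on conversion, and by -0.12 to 0.86 afterwards. F3 and WWTR1 were higher after the removal in CMK6 and TRSK and lower in the 4 iPSC lines and CMK9.

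**Figure D3:**
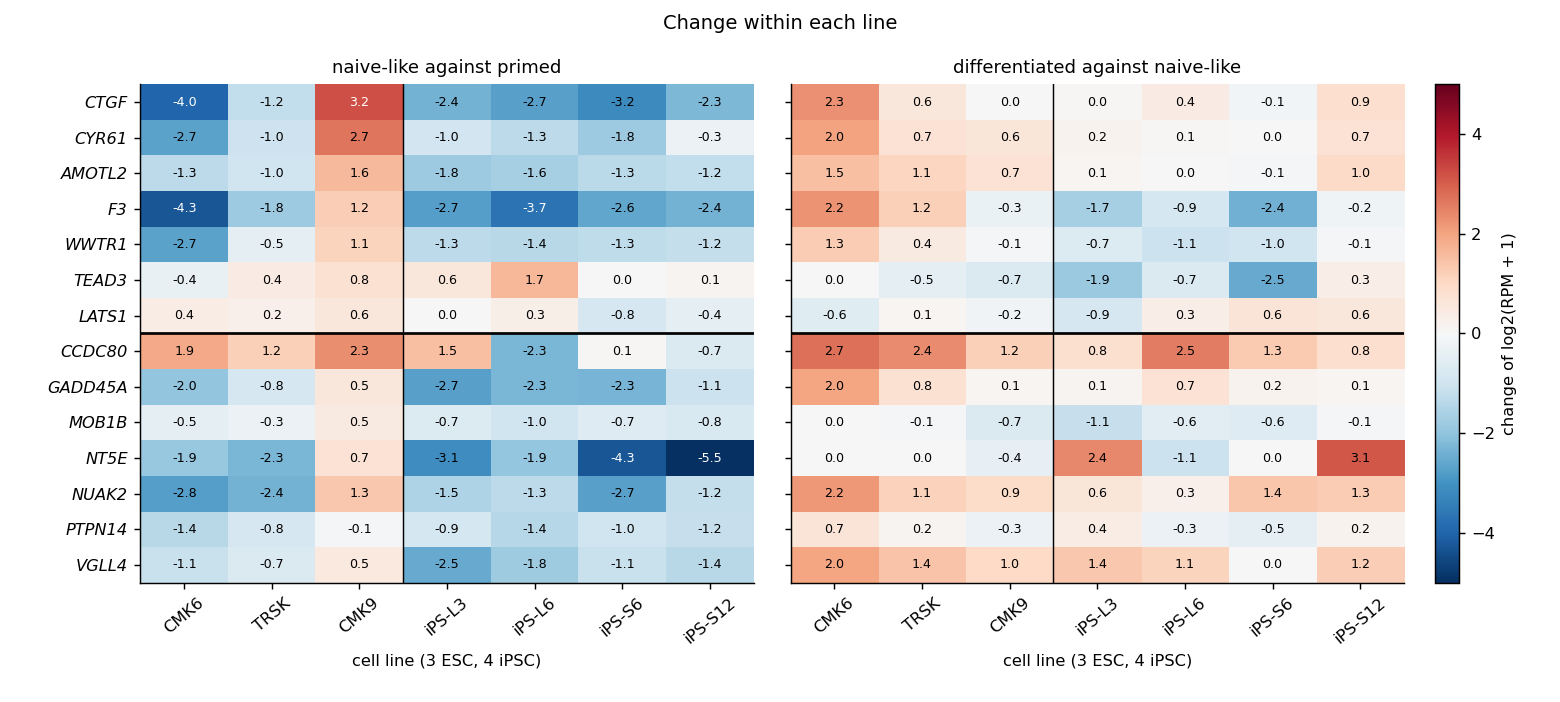
Change of log2(RPM + 1) within each cell line (columns, ESC lines left of the thin line) for the 7 Hippo-YAP genes and, under the thick line, 7 other Hippo-YAP genes that passed the test in a comparison of media. The left panel is mostly blue for CTGF, CYR61, AMOTL2, F3 and WWTR1 except in CMK9, whose CTGF is higher by 3.22, and in the right panel CMK6 has values of 1.25 to 2.29 in these 5 genes.

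CMK9 was the exception on conversion. Its CTGF was 29.9 RPM in the primed and 288 RPM in the naïve-like library, a log2 difference of 3.22, and CYR61, AMOTL2, F3 and WWTR1 were higher after conversion by 2.69, 1.64, 1.24 and 1.11. It was the primed library that stood apart. Against the mean of the other 6 primed libraries, primed CMK9 stood at -4.53 for CTGF, -3.14 for CYR61, -2.65 for AMOTL2, -3.03 for F3 and -2.29 for WWTR1. TEAD3, at 0.07, and LATS1, at -0.45, lay near the others. The naïve-like and differentiated CMK9 libraries lay within the range of the other lines for CYR61, F3, WWTR1, TEAD3 and LATS1, and naïve-like CMK9 was the highest of its medium for CTGF and AMOTL2. Primed CMK9 was the most deeply read library, and its CTGF value rests on 239 reads, CYR61 on 591 and F3 on 31. Without primed CMK9, 20.5% of the 2769 genes then tested passed on conversion and 8.7% fell. Of the 7 genes 5 fell, among them F3, which the filter favoured. The log2 differences were -2.43 for CTGF (adjusted p = 0.000585), -1.22 for CYR61 (0.0103), -1.34 for AMOTL2 (0.000448), -2.76 for F3 (0.00245) and -1.35 for WWTR1 (0.00414). Between differentiated and primed cells CTGF (-1.85, adjusted p = 0.00635) and AMOTL2 (-0.72, adjusted p = 0.042) then passed beside F3 and WWTR1. In that comparison 13.9% of the 2769 genes passed and 7.26% fell.

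Genes of other lists went both ways in primed CMK9. Of 5 serum and immediate-early response genes 4 were below the median of the primed libraries, with ATF3 (9.89 RPM, median 41.5) and SRF (27.2 RPM, median 93.2) the lowest of the 7 primed values and BTG2 (15.9 RPM, median 13.5) above the median. One gene was left out of the TGF-β response list after its values had been seen, so no count is given for that list. Of the genes kept, SKIL (12.5 RPM, median 171) and TGFB2 (0.25 RPM, median 9.55) were below the primed median. TGFBR3 (44.6 RPM, median 16.8) and INHBA were above it, and TGFBR2 and CDKN1A were at the median. Of 9 mesenchymal marker genes 6 were below it, with CAV1 (551 RPM, median 911) the lowest of the primed values and COL1A2 (75.5 RPM) at the median. Of 8 pluripotency genes 7 were at or above it and 1 was below it. In 3 of the 8, among them POU5F1 at 427 RPM against a median of 238 RPM, CMK9 had the highest of the primed values, and in 1 it had the lowest. The part of these differences in the levels of the Hippo-YAP genes was not tested.

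In the primed medium none of the 7 genes differed between ESC and iPSC lines past the threshold. Ranges that lie apart are given here as a description only, since the share of all expressed genes with such ranges was not worked out. Every primed ESC library lay below every primed iPSC library for CTGF (29.9 to 505 RPM against 859 to 1179 RPM), AMOTL2 (34.6 to 186 against 205 to 379 RPM), F3 (3.88 to 34.0 against 37.2 to 82.5 RPM) and WWTR1 (19.5 to 101 against 107 to 156 RPM). For CYR61 the ESC value of 684 RPM in CMK6 overlapped the iPSC range of 638 to 1001 RPM. The log2 differences, ESC minus iPSC lines, were -2.70 for CTGF (95% interval -4.19 to -1.21, adjusted p = 0.0573), -1.45 for AMOTL2 (adjusted p = 0.0622), -1.53 for WWTR1 (0.0628), -2.53 for F3 (0.0774) and -1.50 for CYR61 (0.179). None of the 7 genes passed limma's test, against 1.59% of the expressed genes, and 5 of the 7 had an unadjusted p under 0.05, against 438 of the 2776. Without CMK6, which leaves 2 ESC lines, all 5 passed (adjusted p 0.00393 to 0.0492). In that fit 45 of 2737 genes passed, 36 of them lower in the ESC lines. Without primed CMK9 none of the 7 genes passed, against 0.867% of the genes then tested. The values then were -1.53 for CTGF (adjusted p = 0.293), -0.58 for CYR61 (0.672), -0.73 for AMOTL2 (0.303), -1.95 for F3 (0.293) and -0.98 for WWTR1 (0.302). The iPSC side stands for 1 foetus, and some of its lines kept a reprogramming vector, so origin, donor and vector cannot be told apart. That foetus was female and of the ESC lines only CMK9 was, so sex was not separated from origin either.

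In naïve-like medium the same differences were -0.74 for CTGF (95% interval -2.23 to 0.75), -1.29 for F3 and -0.91 for WWTR1, and 0 of 7 genes passed, where 0.72% of the expressed genes did. WWTR1 alone had an unadjusted p under 0.05 there (0.0398). In differentiated cells the ESC lines were at -0.08 for CTGF (95% interval -1.57 to 1.41), 1.03 for F3 and 0.33 for WWTR1, and 0 of 7 passed, also none at an unadjusted p under 0.05, against 0.612% of all. Whether the lines of the 2 origins responded differently was tested as an interaction. For conversion 0% of the expressed genes passed and 133 had an unadjusted p under 0.05, among them AMOTL2 (difference of responses 1.29, standard error 0.56, unadjusted p = 0.0313, adjusted p = 0.968), which without primed CMK9 was 0.57 (unadjusted p = 0.181). For LIF and Dox removal 0% passed and 109 had an unadjusted p under 0.05, among them F3 (2.32, unadjusted p = 0.0335, adjusted p = 0.999) and WWTR1 (1.25, unadjusted p = 0.0462, adjusted p = 0.999).

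**Figure D4:**
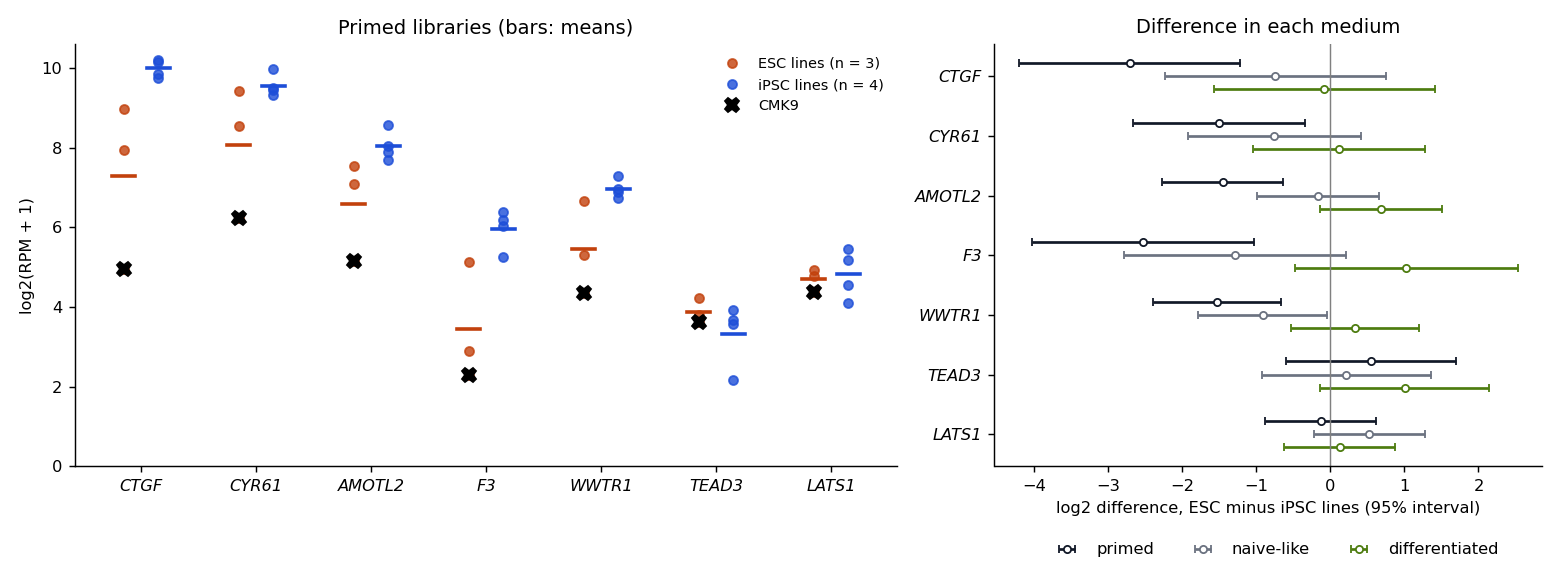
Left, log2(RPM + 1) of the 7 genes in the primed libraries of 3 ESC and 4 iPSC lines, with the group means as bars and CMK9 as a black cross. Right, the difference of ESC minus iPSC lines with its 95% interval in each medium, which for CTGF goes from -2.70 in primed PSCs to -0.74 after conversion and -0.08 after LIF and Dox removal. No difference had an adjusted p under 0.05.

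The other genes of the pathway came from lists of the kinase cascade and its upstream regulators, of the effectors and of the targets of YAP and TAZ. These were 74 genes beside the 7, of which 22 were in the part of the transcriptome used here and 13 were expressed. The rest of the 74 were not analysed. On conversion 5 of the 13 fell and 0 rose, against 8.18% of all expressed genes that fell and 19.2% that passed either way (median log2 difference -0.49, against 0.06). One of the 5, NT5E, passed the filter only through primed libraries. GADD45A, a stress-induced growth arrest gene on the target list, fell by 1.52 on the log2 scale (standard error 0.37, adjusted p = 0.00648). Its primed libraries had 56.4 to 243 RPM (median 161) and its naïve-like ones 32.1 to 116 RPM (median 40.2). NT5E, the cell-surface enzyme CD73, fell by 2.61 (standard error 0.71, adjusted p = 0.0124), from 2.25 to 78.0 RPM in primed to 0.0 to 4.32 RPM in naïve-like libraries, with 0 RPM listed in most of the latter. Leaving out iPS-S6 ended its call (adjusted p = 0.0554). NUAK2, a kinase on both the regulator and the target list, fell by 1.51 (standard error 0.37, adjusted p = 0.0063). It had 9.81 to 63.4 RPM in primed and 6.44 to 26.2 RPM in naïve-like libraries.

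PTPN14, a phosphatase that binds and restrains YAP, fell by 0.97 (standard error 0.19, adjusted p = 0.00138), the only one of these 5 genes to be lower in 7 of 7 lines, the others being lower in 6. Every primed value of PTPN14, from 66.4 RPM in CMK9 to 114 RPM in CMK6, lay above every naïve-like value (32.1 to 62.2 RPM). VGLL4, which competes with YAP for TEAD factors, fell by 1.16 (standard error 0.28, adjusted p = 0.00614) on conversion. It rose again by 1.16 (adjusted p = 0.0069) after LIF and Dox removal, so that differentiated and primed cells differed by 0.0018. Its medians were 93.8 RPM before conversion, 42.6 RPM after it and 87.7 RPM once LIF and Dox were removed. The falls of GADD45A, NUAK2, PTPN14 and VGLL4 on conversion passed under all 19 alternatives, and so did the rise of VGLL4.

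After LIF and Dox removal 2 of the 13 genes rose and 0 fell, where 6.41% of all expressed genes rose and 14.1% passed either way (median 0.56, against -0.02). Beside VGLL4 this was NUAK2, with 1.10 (standard error 0.37, adjusted p = 0.0452), higher in 7 of 7 lines. That call was kept under 9 of 19 alternatives and was lost when any line but CMK9 was left out (adjusted p 0.0614 to 0.175). Between differentiated and primed cells 1 of the 13 rose and 2 fell (median -0.38, against 0.05). Of all expressed genes 13.4% passed either way there and 7.13% fell. The 2 that fell, PTPN14 (-0.94, adjusted p = 0.00205) and MOB1B, a co-activator of the LATS kinases (-0.96, standard error 0.22, adjusted p = 0.00441), were lower in 7 of 7 lines. MOB1B lost its call without the 4 libraries under 1000000 reads (adjusted p = 0.0537). CCDC80, a secreted matrix protein on the target list, rose by 2.25 (standard error 0.70, adjusted p = 0.0326) in 7 of 7 lines, from a primed median of 2.50 RPM to 31.5 RPM in differentiated cells. Leaving out line CMK6, TRSK, CMK9, iPS-L3 or iPS-S6 ended the call of CCDC80 (adjusted p 0.0502 to 0.127). The target list as a whole, with its 4 members among the 7 genes, had 11 expressed genes, of which 6 fell and 0 rose on conversion, against 8.18% of all expressed genes that fell, with a median of -1.22. F3 and NT5E, 2 of the 6, passed the filter only through the primed libraries.

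**Figure D5:**
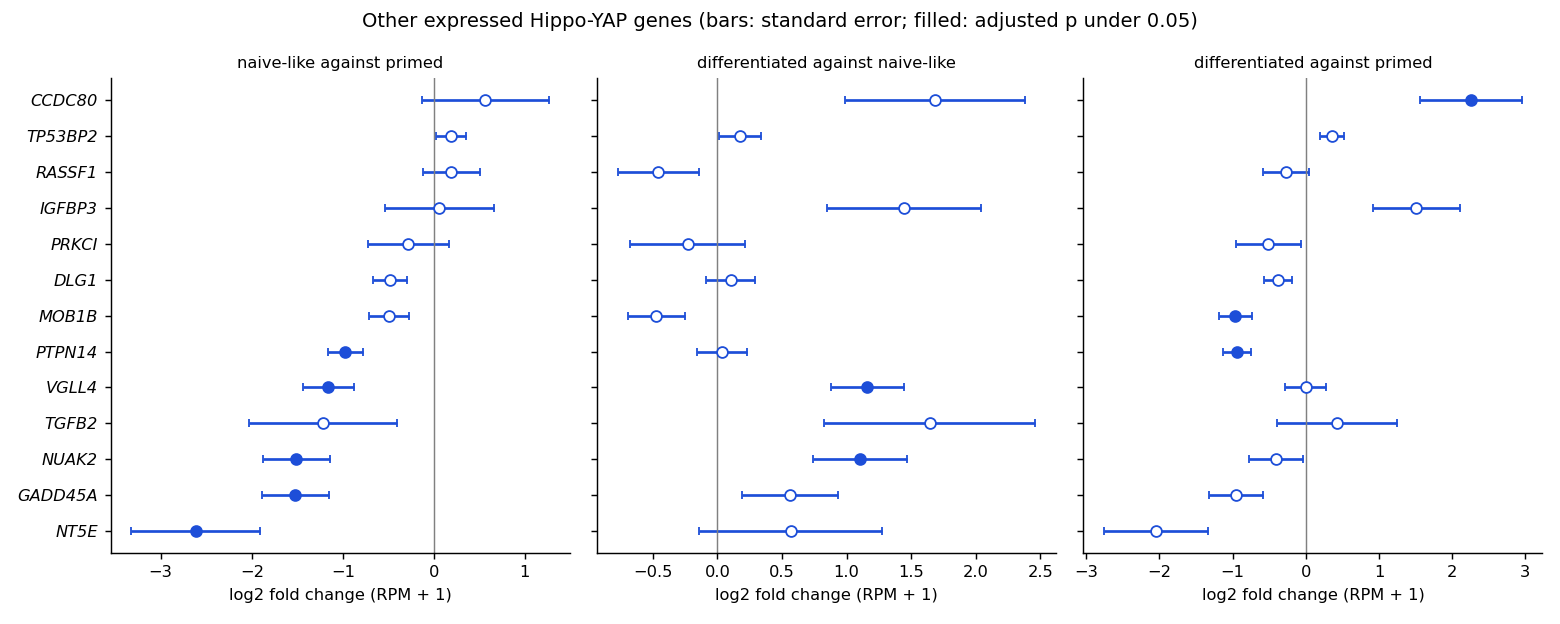
Log2 fold changes (horizontal axis) with standard errors of the 13 other expressed Hippo-YAP genes in the 3 comparisons of media, filled where the adjusted p was under 0.05. On conversion NT5E, GADD45A, NUAK2, VGLL4 and PTPN14 lie to the left of 0, and VGLL4 lies at 1.16 after LIF and Dox removal and at 0 between differentiated and primed cells.

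Several of these targets are also known to respond to other signals, and lists of those, none of which holds any of the 7 genes, were read beside them. Of 7 expressed mesenchymal markers 2 fell on conversion (median -1.89), against 8.18% of all expressed genes. These were CAV1 (-2.85, adjusted p = 7.56e-06) and COL6A1 (-2.06, 0.00929), while COL1A2 stood at -1.92 (0.115). TWIST1 alone of them was higher, at 1.38 (0.145). After LIF and Dox removal CAV1 alone of them rose, by 1.49 (adjusted p = 0.00525), and 0 fell, where 6.41% of all expressed genes rose. TWIST1 (-1.81, adjusted p = 0.0667) and S100A4 (-1.24, 0.36) were lower there without passing. CAV1, the coat protein of caveolae, had 551 to 1365 RPM in primed and 30.8 to 231 RPM in naïve-like libraries. Among the TGF-β response genes, for which no count is given because the list is not whole here, SKIL stood at -0.89 on conversion (adjusted p = 0.237) and CDKN1A at -0.02 (0.986). TGFB2 (-1.22, 0.314) and TGFBR2 (-1.06, 0.119) were also lower there without passing, and TGFBR3 (0.37, 0.529) was higher. After LIF and Dox removal TGFBR3 fell by 1.26 (adjusted p = 0.0227). Between differentiated and primed cells TGFBR2 fell by 1.97 (adjusted p = 0.00618), while CDKN1A stood at 1.16 (0.0827). Of 5 expressed serum and immediate-early genes 1 fell on conversion, ATF3 (-0.96, adjusted p = 0.05, just inside the threshold), and it rose by 1.25 afterwards, while SRF (-0.62, 0.0736) and BTG2 (-0.49, 0.524) did not pass and the median was -0.62. Differentiated cells were below primed ones in 3 of the mesenchymal and 0 of the serum genes, and 0 were above, where 7.13% of all expressed genes fell. Of 8 pluripotency genes 2 rose on conversion and 0 fell, where 307 of the 2776 expressed genes rose. After LIF and Dox removal 4 of them fell, where 214 of the 2776 did. Among these 4 was POU5F1 with -4.14 (adjusted p = 1.25e-05), while SOX2 (0.09) and LIN28A (-0.18) did not pass. Of the hepatocyte markers only AFP was expressed in PSC libraries, and it did not pass in any comparison of media (adjusted p from 0.164 to 0.99), and of the gastric markers none was. In bulk RNA, fewer cells of a kind and less RNA per cell cannot be told apart, and the part of these lists in the results was not tested.

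The somatic libraries had no replicates, so their values are given without a test, and their intervals, exact Poisson ones at 95%, cover counting error only. Neither library had more than 1.76 RPM summed over the 8 pluripotency genes. In the liver library all 7 measured hepatocyte markers, among them AFP, TF and ARG1, were listed at 0, while COL1A2 had 4832 RPM, so these markers do not show the labelled tissue. In the stomach library 3 of 4 measured gastric epithelium markers were present, TFF1 at 89.5 RPM, TFF2 at 166 RPM and CLDN18 at 188 RPM, and COL1A2 had 4506 RPM. The mesenchymal sum was 6217 RPM in liver and 6569 RPM in stomach, against 1560.2 RPM at most in the PSC libraries.

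The stomach library had high levels of the secreted targets. CTGF had 989.8 RPM there (95% interval 955 to 1026), which 2 of the 21 PSC libraries exceeded, and 124 RPM in liver (108 to 142), which 16 exceeded. CYR61 had 976 RPM in stomach (942 to 1012) and 196 RPM in liver (176 to 218), and F3 52.6 RPM in stomach (44.8 to 61.3) and 2.93 RPM in liver (5 reads, 0.953 to 6.85). The stomach library lay within the range of the primed libraries in all 3. AMOTL2 was lower, at 91.5 RPM in stomach and 49.9 RPM in liver, and only primed CMK9 of the PSC libraries was below the liver value. WWTR1 had the opposite order, with 58.1 RPM in liver (47.2 to 70.7) and 36.8 RPM in stomach (30.3 to 44.2). TEAD3 had 10.6 RPM in liver and 4.54 RPM in stomach, from 18 and 14 reads, with intervals of 6.26 to 16.7 and 2.48 to 7.62 RPM. LATS1, with 50.5 RPM in liver (40.4 to 62.3) and 48.97 RPM in stomach (41.5 to 57.4), lay above all 21 PSC libraries, although the highest of these, 46.8 RPM in differentiated iPS-S12, is inside both intervals.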

How the data were processed

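The authors deposited 1 table of RPM values, a column per library, with no pooling of replicates. Per the labels and the study's methods, 75 bp single reads of 3′ ends were processed by the authors with cutadapt 1.3, TopHat 1.4.1 and Cufflinks 2.2.0. Values summed to 24.8% to 27.5% of a library's total, so the table used here is part of the transcriptome, and 1 incomplete row was left out. CTGF was identified by its gene ID. RPM values above 0 were whole multiples of 1 step per library for 87.3% to 93.3% of genes (within 0.05 reads), which gave the depth but no counts, so tests of counts were not used. Values were taken as log2(RPM + 1) and tested with limma 3.58.1 in R 4.3.3 (mean-variance trend, two-sided), with 3 groups of 7 libraries in 1 fit, and with 6 groups (medium by origin) for ESC against iPSC lines and the interactions. The libraries of a line come from the same line by their labels, and they deviated together (mean correlation 0.269 for 21 pairs of the same line, -0.0446 for 126 other pairs). A fit blocked on cell line served as an alternative. Libraries are numbered medium after medium, so that any batch and the medium cannot be told apart. Nothing states that libraries came from separate cultures, so p-values measure the spread between these lines.

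The 7 genes and all lists were chosen with earlier results of these data known. The genes named are these 7, other Hippo-YAP genes that passed in a comparison of media, the 3 expressed genes most correlated with each of the 7, and of the lists of other signals and cell types the 3 genes with the highest mean level. TWIST1 and S100A4 were added because they went against the other mesenchymal markers on conversion or after LIF and Dox removal. TGFB2, TGFBR2 and TGFBR3 were added so that all expressed genes kept on the TGF-β list are named. The script was tested on simulated data. Other calculations used Python 3.11.15 with numpy 2.4.6, pandas 2.3.3 and scipy 1.17.1. Alternatives were a pseudocount of 0.1, no filter, a filter of 7 libraries, quantile normalization, library centring, no trend, the block, only the 2 media compared, each line left out, and single libraries or those under 1000000 reads left out. RefSeq's table was used for gene names only (5564 gene IDs matched). One gene of the TGF-β list is not reported here and was left out of that list after its values had been seen.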

Additional observations from a re-analysis of the deposited data

Results flagged for a closer look

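In 3 of the 21 sets of 7 libraries (7 genes in 3 media), 1 library stood apart from the other 6 by more than Dixon's 95% critical value. The ratio is the gap to the nearest library divided by the whole range, taken on the log2(RPM + 1) scale and not on RPM. Chance alone gives about 1 such set in 20, here 1.05. Primed CMK9 was the low library for CTGF (29.9 RPM, ratio 0.5682, just past the critical value) and for CYR61 (74.0 RPM, ratio 0.6194). These 2 values come from the same library, which was also the lowest primed one for AMOTL2, F3 and WWTR1. TEAD3 had its low value in primed iPS-L6 (3.49 RPM, ratio 0.6825), which is the value of 3 reads in the library with the fewest reads.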

How the results depend on the processing

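For naïve-like against primed PSCs, where 2 of the 7 genes passed, the number passing was 1 with a pseudocount of 0.1, no filter, the stricter filter, no trend, only the 2 media compared, without naïve-like CMK6, without primed iPS-S12 or without the 4 libraries under 1000000 reads. It was 4 with quantile normalization, library centring or the replicate block (cell line), 5 without primed CMK9, and 0 to 5 with each line left out (0 without CMK6 or iPS-L6, 5 without CMK9). For differentiated against primed cells, also 2, it was 1 with no filter, the stricter filter, no trend, only the 2 media compared or without primed iPS-S12, 0 without the libraries under 1000000 reads, 4 without primed CMK9, and 1 to 4 with each line left out. For ESC against iPSC lines in primed medium, 0 with all libraries, it was 1 with quantile normalization, 2 without naïve-like CMK6 (CTGF and WWTR1) and 0 to 5 with each line left out (5 without CMK6). The causes were not tested. The stricter filter removed F3 from the test. The block changed no call of the 7 genes beyond AMOTL2 and WWTR1 on conversion, and raised the calls over all genes from 534 to 724, 392 to 550 and 372 to 585. With library centring 261 genes fell and 218 rose on conversion, against 227 and 307 as deposited, and on LIF and Dox removal 190 fell and 220 rose, against 214 and 178. Over all genes the calls on conversion were 300, 351 and 355 without iPS-L3, iPS-S6 or iPS-L6, those on LIF and Dox removal 220 without CMK6, and those between differentiated and primed cells 240 without iPS-S6 and 222 without the shallow libraries. No called difference of the 7 genes changed sign. LATS1, near 0, changed sign on conversion in 9 of 19 alternatives. F3 in naïve-like and differentiated cells and TEAD3 in shallow libraries are limited by depth. Leaving out primed CMK9 was chosen after seeing the data.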
